A study of Homo sapiens with 14 samples.

Results

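The miRNAs described here are both arms of miR-149, miR-328 and miR-505, and miR-760. They make up 7 of the 2588 mature miRNAs in each of the count tables. Of the 7, hsa-miR-149-3p, hsa-miR-328-3p, hsa-miR-505-5p and hsa-miR-760 were chosen by the study for its list of METTL1-dependent miRNAs, partly on the very contrasts reported below, and they are the members of that list outside the let-7, miR-320 and miR-92 families and the other larger groups. Their enrichment is therefore given as a description with no test. The partner arms hsa-miR-149-5p, hsa-miR-328-5p and hsa-miR-505-3p were added by name, whatever their values, and for them the test across all miRNAs is given. All RNA came from A549, a human lung adenocarcinoma cell line, and was decapped so that internal m7G was what remained to be read. In BoRed-seq, m7G was reduced with NaBH4, hydrolysed to an abasic site, coupled to a biotinylated aldehyde reactive probe and pulled down on streptavidin (Red, n = 2), and the control RNA went through the same steps with acid-quenched NaBH4 and is non-reduced (Ctrl, n = 2). In m7G-RIP-seq, heat-denatured RNA was immunoprecipitated with an antibody against m7G (IP, n = 5) and set against the RNA before precipitation (Input, n = 5). The labels do not say whether replicates were separate cultures, so p-values measure the spread between these libraries, which may be technical. Libraries with METTL1 knocked down are not analysed here, and the tables hold miRNAs alone, so the cell line was not checked against protein-coding markers.

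Depth differed widely between the groups. The Ctrl libraries held 4678102 and 5874405 miRNA counts and the Red libraries 242085 and 277498. The Input libraries held 7097379 to 14874685 and the IP libraries 2854811 to 6452759. The same 10 counts therefore stood for 41.3 counts per 1000000 in Red 1 (hsa-miR-149-3p) and for 2.14 in Ctrl 2 (hsa-miR-760).

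A miRNA hairpin is cut from its primary transcript by DROSHA and trimmed by DICER to a duplex of a 5p and a 3p arm. One arm is usually loaded into Argonaute, where its seed pairs with target mRNAs, and the other is mostly degraded, so both arms of a hairpin start in equal number and are counted separately afterwards. METTL1 is the methyltransferase that, with WDR4, places m7G within tRNAs. A methyl group at N7 of guanine blocks Hoogsteen pairing, the kind of pairing that holds G-quadruplexes together, and the miR-149 precursor is a known G-quadruplex former.

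The mature sequences show how unlike the arms are. RefSeq (GRCh38.p14) held 5 of the 7 by name, written here 5′ to 3′ with the seed (bases 2 to 8) in capitals, because the seed decides whether a member shares targets with another miRNA.
hsa-miR-149-3p: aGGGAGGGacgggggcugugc
hsa-miR-149-5p: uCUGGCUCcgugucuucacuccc
hsa-miR-328-3p: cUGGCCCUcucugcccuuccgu
hsa-miR-328-5p: gGGGGGGCaggaggggcucaggg
hsa-miR-760: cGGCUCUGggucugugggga
No seed was shared among these members. hsa-miR-149-3p shared its seed with 2 other miRNAs of the tables, hsa-miR-4728-5p and hsa-miR-6785-5p, and hsa-miR-328-5p shared its seed with hsa-miR-6885-5p. For the other members with a sequence no miRNA with the same seed was found. The search covered the 2281 miRNAs with a sequence, out of 2588 in each table.

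The same sequences are shown again with runs of 2 or more G in capitals, since m7G can only sit on a guanosine and a G-quadruplex is built from such runs.
hsa-miR-149-3p: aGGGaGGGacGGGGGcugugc
hsa-miR-149-5p: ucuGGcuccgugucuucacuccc
hsa-miR-328-3p: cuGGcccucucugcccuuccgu
hsa-miR-328-5p: GGGGGGGcaGGaGGGGcucaGGG
hsa-miR-760: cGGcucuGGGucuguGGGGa
hsa-miR-328-5p held 16 G in 23 bases and hsa-miR-149-3p held 13 in 21. hsa-miR-760 held 10 G in 20 bases. hsa-miR-328-3p and hsa-miR-149-5p each held 4 G, in 22 and 23 bases, of which a single pair was adjacent. The list thus held the G-rich arm of miR-149 but the G-poor arm of miR-328. The G-rich arm, hsa-miR-328-5p, had too few counts to pass the filter used here in either assay.

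The hairpins of miR-149, miR-328 and miR-760 lie within introns of protein-coding genes in the GENCODE annotation of GRCh38. MIR149 (chr2:240456001-240456089, plus strand) lies in GPC1 in the same orientation, opposite an intron of the non-coding GPC1-AS1. MIR328 (chr16:67202321-67202395, minus strand) lies in ELMO3 and MIR760 (chr1:93846832-93846911, plus strand) in BCAR3, both on the strand opposite to the gene. hsa-miR-149-3p is at chr2:240456056-240456076, hsa-miR-328-3p at chr16:67202327-67202348 and hsa-miR-760 at chr1:93846880-93846899.

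Before enrichment, the 7 miRNAs differed widely in level in A549. Levels are CPM, miRNA counts scaled to a library total of 1000000, with no division by length because a read stands for a whole mature miRNA. In Input, hsa-miR-149-5p was the highest at 326 ± 130 CPM (SD, n = 5) and ranked 96 of 1596 miRNAs with a count, and the lowest member ranked 790. hsa-miR-328-3p followed at 154 ± 16.7 CPM. hsa-miR-760 at 36.6 ± 7.89 and hsa-miR-505-3p at 31.9 ± 8.58 CPM could not be separated, since their libraries overlapped and neither was the higher in all of them. The next pair, hsa-miR-149-3p at 8.67 ± 1.97 and hsa-miR-505-5p at 5.85 ± 2.12 CPM, also overlapped between libraries, but within each of the 5 libraries hsa-miR-149-3p had the higher count. hsa-miR-328-5p was the lowest at 0.554 ± 0.279 CPM. A549 was measured in bulk, so fewer cells with a miRNA and less of it per cell cannot be told apart.

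The Ctrl libraries hold non-reduced RNA that went through the same steps, pulldown included, so their levels are not those of unselected RNA. They gave the same order as Input apart from 2 exchanges of neighbours. hsa-miR-149-5p stood at 98.9 and 158 CPM, hsa-miR-328-3p at 17.5 and 13.0 CPM and hsa-miR-505-3p at 9.36 and 9.41 CPM. hsa-miR-760 stood at 2.89 and 2.14 CPM, below hsa-miR-505-3p without overlap. hsa-miR-505-5p held 1.36 and 1.28 CPM and hsa-miR-149-3p 0.851 and 0.855 CPM. The listed arms of miR-149 and miR-505 thus rested on 4 to 8 counts in each Ctrl library.

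The antibody pulldown was asked which miRNAs carry m7G, and in it all the listed arms were higher in every IP library than in every Input library. Values are counts divided by the DESeq2 size factor of the library (normalized counts), and enrichment is the DESeq2 log2 ratio of IP to Input. hsa-miR-149-3p had 71.1, 78.6, 59.2, 89.1 and 63.2 normalized counts in Input 1 to 5, and 170.1, 227, 417, 620 and 560.3 in IP 1 to 5. Its Input libraries lay close together and its IP libraries spread widely, with IP 1 and 2 the lowest. The log2 enrichment was 2.47 ± 0.37 (SE).

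hsa-miR-505-5p had 64.1, 34.1, 30.3, 52.6 and 60.5 normalized counts in the Input libraries and 170.1, 161, 122, 447 and 452 in the IP libraries. IP 4 and IP 5 stood apart from the other 3 IP libraries, and the log2 enrichment was 2.49 ± 0.44. hsa-miR-760 had 366, 383, 311, 287 and 197 normalized counts in Input and 1525, 1695, 1344, 1756 and 1178 in IP. Its groups were far apart, with means of 309 ± 73.7 in Input and 1500 ± 241 in IP (SD, n = 5 each). The log2 enrichment was 2.28 ± 0.23.

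hsa-miR-328-3p, the most abundant of the listed arms and one known as a decoy for a poly(rC)-binding protein, had 1413, 1221, 1401, 1271 and 1152 normalized counts in Input. In IP it had 2904, 2817, 2715, 4236 and 3337. The groups did not overlap, but the log2 enrichment of 1.31 ± 0.17 was the smallest of the 4. Across all 670 miRNAs fitted, 27.3% were called enriched at an adjusted p below 0.05, and 18.2% were higher in every IP than in every Input library. All of the 4 listed arms fell in both classes, a count fixed by how they were chosen. The plot of normalized counts shows the libraries of both assays.

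**Figure D1:**
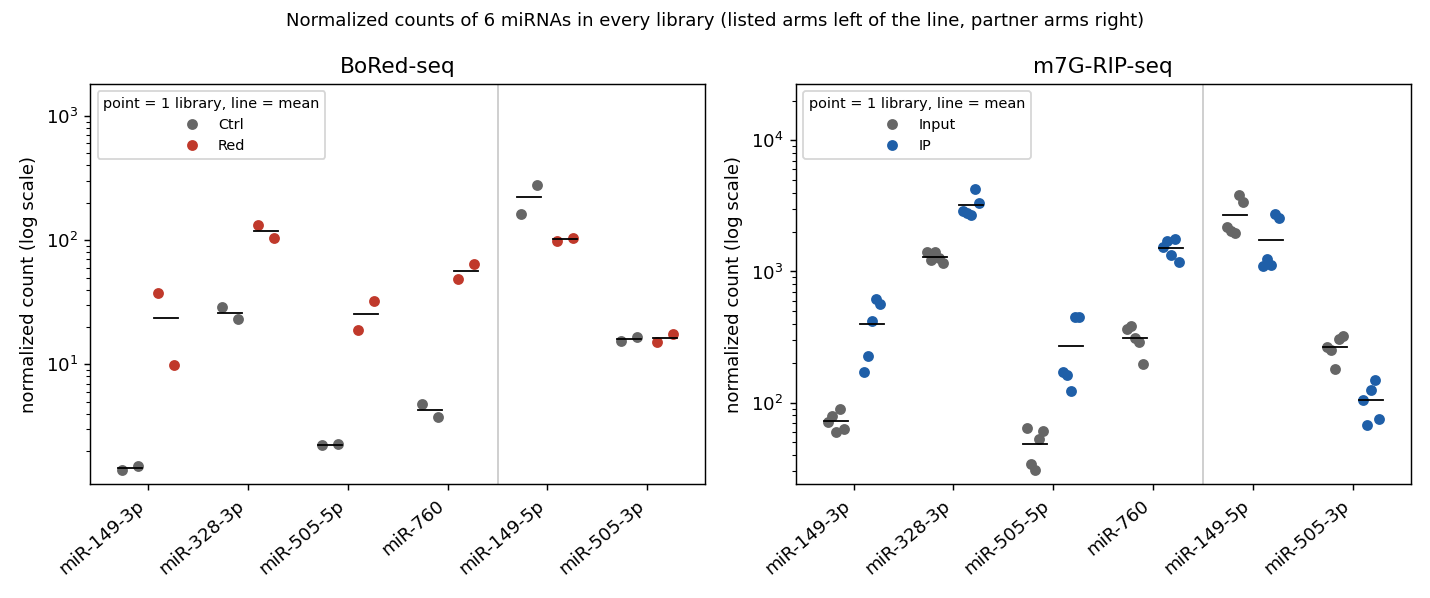
Normalized counts on a log axis of the 4 listed arms (left of the vertical line) and of miR-149-5p and miR-505-3p (right) in every library of BoRed-seq and m7G-RIP-seq, with 1 point per library and a line at the group mean. The listed arms are higher in all pulldown libraries, miR-505-3p is lower in all IP libraries, and miR-149-5p overlaps between Input and IP. miR-328-5p, with counts of 0 in 3 libraries, is not plotted.

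The partner arms did not follow in the antibody pulldown. hsa-miR-505-3p, the more abundant arm of its hairpin, was depleted. It had 264, 252, 181, 306 and 322 normalized counts in Input and 105, 67.3, 124, 148 and 74.6 in IP. Every IP library was below every Input library, and the log2 enrichment was -1.36 ± 0.29 (DESeq2 adjusted p = 8.98e-06). Among all miRNAs fitted, 29.9% were called depleted and 24.2% were lower in every IP than in every Input library.

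hsa-miR-149-5p had 2189, 2035, 1976, 3817 and 3396 normalized counts in Input and 1098, 1244, 1115, 2735 and 2538 in IP. Replicates 4 and 5 were higher than replicates 1 to 3 on both sides, so the groups overlapped although each IP library was below the Input library of its number. Without the pairing the log2 enrichment of -0.62 ± 0.35 did not pass the test (DESeq2 adjusted p = 0.115). With a replicate block it was -0.68 ± 0.17 and passed (DESeq2 adjusted p = 9.74e-05). The labels do not state this pairing, and for replicates 2, 3 and 4 the same-numbered library was not the best match. hsa-miR-149-5p also passed in replicates 1 to 3 alone at -0.88 ± 0.15 (DESeq2 adjusted p = 2.09e-08) and in replicates 4 and 5 alone at -0.48 ± 0.14 (DESeq2 adjusted p = 0.00182). It passed without IP 4 at -0.83 (DESeq2 adjusted p = 0.0285) and with a term for the replicate set at -0.68 (DESeq2 adjusted p = 2.62e-08). In the other 14 alternatives it did not pass, at -0.78 to -0.32. The value closest to 0, -0.32 (DESeq2 adjusted p = 0.452), came with total-count scaling.

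hsa-miR-328-5p, the G-richest of the sequences shown, was close to the limit of detection. It had 5, 9, 10, 1 and 8 counts in Input and 13, 0, 0, 9 and 2 in IP. The counts of 0 in IP 2 and IP 3 allow up to 0.567 and 1.05 CPM, for counting error only. It did not pass the filter of 10 counts in 5 libraries. In a fit with no filter its log2 enrichment was 0.31 ± 1.13 (DESeq2 adjusted p = 0.865), and the ratio of the group means turned from 0.31 to -0.67 on the log2 scale without IP 1. An enrichment or a depletion of this arm was not detectable at this depth.

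The size of the enrichment moved with the replicate number. With each IP library set against the Input of its number, hsa-miR-149-3p gave log2 ratios of 1.26, 1.53, 2.82, 2.80 and 3.15 in replicates 1 to 5. hsa-miR-505-5p gave 1.41, 2.24, 2.00, 3.09 and 2.90, and hsa-miR-328-3p 1.04, 1.21, 0.95, 1.74 and 1.53. hsa-miR-760 was the steadiest of the 4 at 2.06, 2.14, 2.11, 2.61 and 2.58. For hsa-miR-328-3p, hsa-miR-505-5p and hsa-miR-760, both replicates 4 and 5 exceeded all of replicates 1 to 3, and hsa-miR-149-3p missed this only through replicate 3. The share of all miRNAs with this pattern was not counted, so it is not shown to be particular to these members. Over all miRNAs, counts of 2 IP libraries differed more between the sets (chi-square per degree of freedom 757 to 1382) than within them (46.6 to 79.9). The same held for 2 Input libraries, at 438 to 655 between the sets and 25.8 to 150 within them.

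Fitted separately, replicates 1 to 3 gave hsa-miR-505-5p a log2 enrichment of 1.79 ± 0.47 and replicates 4 and 5 gave 2.96 ± 0.29. The same fits gave hsa-miR-149-3p 1.92 ± 0.41 and 2.93 ± 0.28, hsa-miR-328-3p 1.03 ± 0.14 and 1.61 ± 0.17, and hsa-miR-760 2.07 ± 0.19 and 2.57 ± 0.25. All 4 stayed well above 0 in either set. The labels do not say what sets the replicates apart, and the difference between the sets was not tested.

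**Figure D2:**
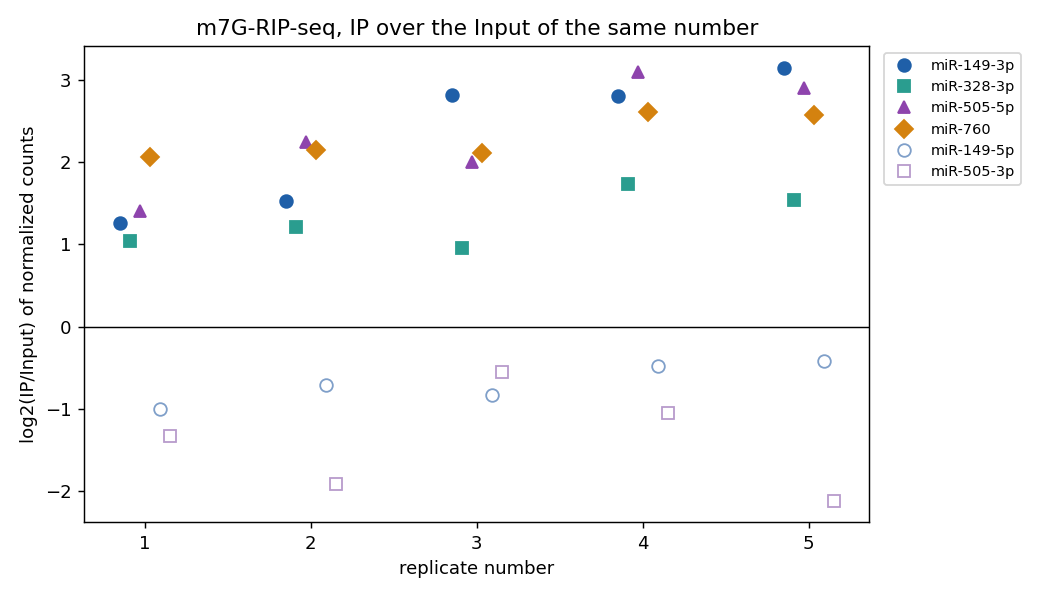
The log2 ratio of IP to the Input library of the same number in m7G-RIP-seq, by replicate number, for the listed arms (filled) and the partner arms miR-149-5p and miR-505-3p (open). The listed arms lie between 0.95 and 3.15 and these partner arms between -2.11 and -0.42. The 2 plotted sets do not meet in any replicate, which the choice of the listed arms partly fixed. miR-328-5p, near the limit of detection and not plotted, gave 1.60, 3.88 and -0.75 in replicates 1, 4 and 5. It had 0 IP counts in replicates 2 and 3.

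BoRed-seq asked the same question by chemistry, with far fewer counts in the pulldown. hsa-miR-760 had 17 and 10 counts in Ctrl and 13 and 26 in Red. Given the far smaller Red libraries, this is 2.89, 2.14, 53.7 and 93.7 CPM. In normalized counts it had 4.79 and 3.78 in Ctrl against 49.0 and 64.7 in Red. The log2 enrichment was 3.73 ± 0.71. hsa-miR-328-3p had 103 and 61 counts in Ctrl and 35 and 42 in Red, or 29.0 and 23.1 against 132 and 105 normalized counts. Its log2 enrichment was 2.17 ± 0.49, again below that of hsa-miR-760. Of the 453 miRNAs fitted, 28% were called enriched, and 34.9% were higher in both Red than in both Ctrl libraries.

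The other listed arms did not reach 10 counts in 2 BoRed-seq libraries and were not part of the fit. hsa-miR-149-3p had 5 and 4 counts in Ctrl and 10 and 4 in Red, which is 1.41 and 1.51 against 37.7 and 9.96 normalized counts. Both Red libraries were higher, but they lay far from each other. The group means differed by 4.03 on the log2 scale, and by 2.77 without Red 1. hsa-miR-505-5p had 8 and 6 counts in Ctrl and 5 and 13 in Red, which is 2.25 and 2.27 against 18.8 and 32.4 normalized counts. Its group means differed by 3.50 on the log2 scale. In a fit with no count filter the log2 enrichment was 3.51 ± 1.33 for hsa-miR-149-3p and 3.03 ± 1.20 for hsa-miR-505-5p, given as a description. These values rest on 14 and 18 counts in the Red libraries together.

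Of the partner arms, hsa-miR-149-5p was depleted in BoRed-seq and hsa-miR-505-3p did not pass the test, both under median-ratio scaling. hsa-miR-149-5p had 581 and 737 counts in Ctrl and 26 and 42 in Red, or 164 and 279 against 98.0 and 105 normalized counts. The log2 enrichment was -1.12 ± 0.44 (DESeq2 adjusted p = 0.0235), in a table where 23.8% of miRNAs were called depleted and 46.6% were lower in both Red than in both Ctrl libraries. This call was lost without Ctrl 2 (DESeq2 adjusted p = 0.446), without Red 1 (0.187) and without Red 2 (0.0799). hsa-miR-505-3p had 55 and 44 counts in Ctrl and 4 and 7 in Red, or 15.5 and 16.6 against 15.1 and 17.4 normalized counts. Its log2 enrichment was 0.03 ± 0.90 (DESeq2 adjusted p = 0.982). With an SE close to a 2-fold change, no change of that size was detectable in either direction. hsa-miR-328-5p had 1 and 0 counts in Ctrl and 1 and 2 in Red, too few for any ratio.

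How the Red libraries are scaled sets these values. With scaling to total miRNA counts in place of median ratios, the median log2 enrichment of the 453 miRNAs went from -0.32 to 0.77. The log2 enrichment was then 4.87 for hsa-miR-760, 3.28 for hsa-miR-328-3p and 0.02 for hsa-miR-149-5p (DESeq2 adjusted p = 0.971), so the depletion of hsa-miR-149-5p was absent on that scale. For hsa-miR-505-3p it was 1.16 (DESeq2 adjusted p = 0.339), with 9.36 and 9.41 CPM in Ctrl and 16.5 and 25.2 CPM in Red. The log2 ratio of means rose to 5.03 for hsa-miR-149-3p and 4.67 for hsa-miR-505-5p.

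**Figure D3:**
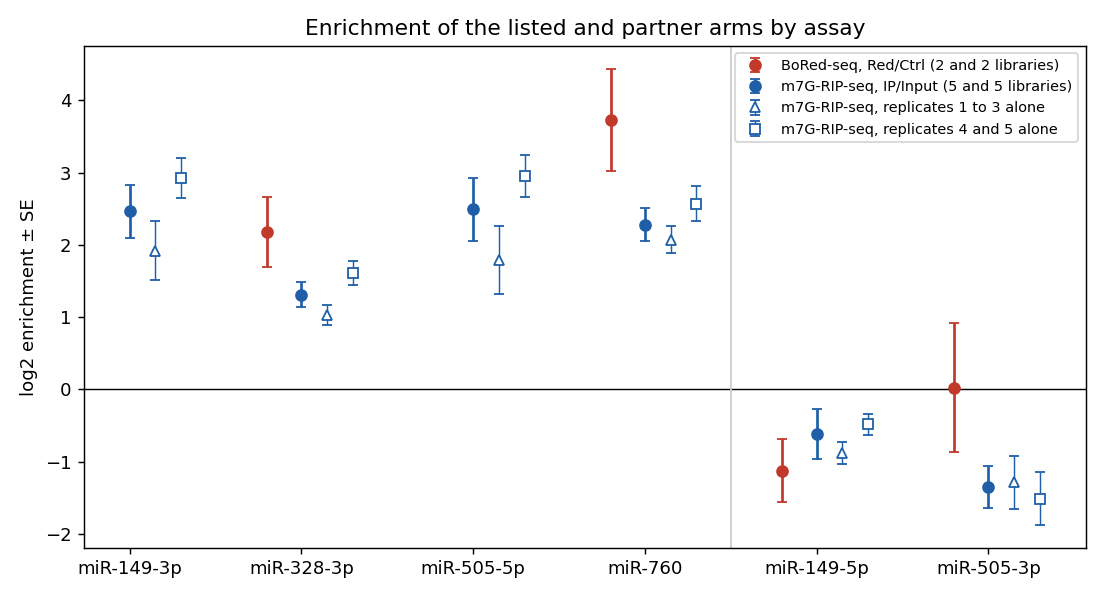
The log2 enrichment ± SE from DESeq2 of each member that passed the count filter, for BoRed-seq (Red over Ctrl, red), m7G-RIP-seq (IP over Input, blue) and the 2 replicate sets of m7G-RIP-seq fitted alone (open). Listed arms (left of the line) are all above 0, hsa-miR-149-5p is below 0 in red and in blue, and hsa-miR-505-3p is at 0.03 by the chemical assay and at -1.36 by the antibody. miR-149-3p and miR-505-5p have no BoRed-seq point because they did not pass its filter.

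The arms of a hairpin can be compared within a library, where no scaling between libraries enters. The listed arms were chosen partly for their rise in these pulldowns. A shift towards them is therefore a description, and the intervals are no test of it. Of the counts of both miR-149 arms, the 3p arm took 3.15, 3.72, 2.91, 2.28 and 1.83% in Input 1 to 5. In IP 1 to 5 it took 13.4, 15.4, 27.2, 18.5 and 18.1%. The highest Input share, 3.72% with a 95% Wilson interval of 3.12 to 4.43% (3225 counts), was far below the lowest IP share, 13.4% with an interval of 11.4 to 15.8% (932 counts). On the log2 scale the ratio of 3p to 5p was -5.17 ± 0.41 (SD, n = 5) in Input and -2.18 ± 0.48 in IP, a shift of 3.00.

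BoRed-seq gave a shift of miR-149 in the same direction. The 3p arm took 0.853 and 0.54% of the miR-149 counts in Ctrl and 27.8 and 8.7% in Red. The Red shares rest on 36 and 46 counts, with intervals of 15.8 to 43.99% and 3.43 to 20.3%, and both lie above the Ctrl intervals of 0.365 to 1.98% and 0.21 to 1.38%. The log2 ratio of the arms moved by 4.81, and by 3.80 without Red 1.

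For miR-505 the more abundant arm changed. In Input the 5p arm took 19.6, 11.9, 14.3, 14.6 and 15.8% of the miR-505 counts, so the 3p arm was the major one in all 5 libraries. In IP the 5p arm took 61.9, 70.6, 49.6, 75.1 and 85.8%, and it was the major arm in all but IP 3, where the arms had 56 and 57 counts. The log2 ratio of 5p to 3p was -2.49 ± 0.31 (SD, n = 5) in Input and 1.22 ± 0.98 in IP, a shift of 3.72.

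In BoRed-seq the 5p arm took 12.7 and 12% of the miR-505 counts in Ctrl and 55.6 and 65% in Red. With only 9 and 20 counts of both arms, the Red intervals were 26.7 to 81.1% and 43.3 to 81.9%, above the Ctrl intervals of 6.58 to 23.1% and 5.62 to 23.8%. The log2 ratio moved by 3.44. The values of the 2 assays are given side by side, because the listed arm was chosen on both. All shares and intervals cover counting error only, since the reads carry no molecular identifiers.

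**Figure D4:**
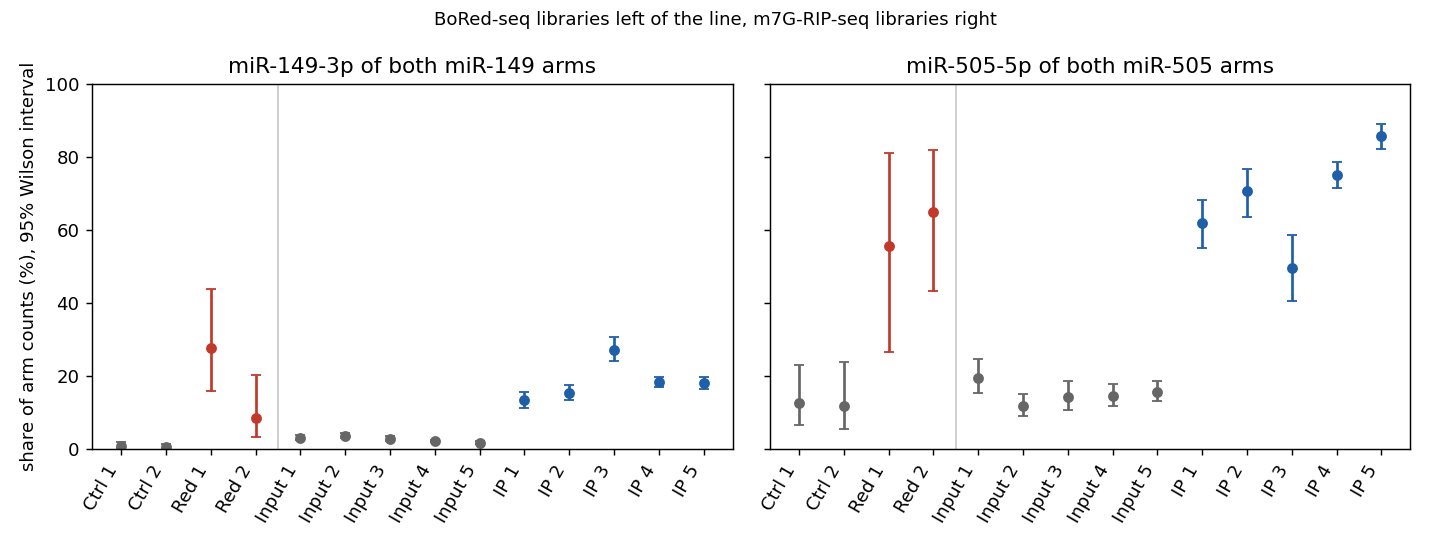
Share of the listed arm among the counts of both arms of miR-149 (left) and miR-505 (right) in each library, in percent with a 95% Wilson interval. The pulldown libraries (Red, IP) lie above all control libraries (Ctrl, Input) of their assay, from 8.7% for miR-149-3p in Red 2 to 85.8% for miR-505-5p in IP 5. The listed arms were chosen partly on this rise, so the gap is a description.

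The miR-328 hairpin showed no such exchange of arms. The 3p arm took 99.5 to 99.9% of its counts in Input and 99.4 to 100% in IP, with all of 2219 and 1249 counts in IP 2 and IP 3. In BoRed-seq it took 99.0 and 100% in Ctrl and 97.2 and 95.5% in Red, where 1 and 2 counts were of the 5p arm. miR-760 has a single arm in the tables, so no share could be formed.

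The members were compared with all other miRNAs by their share of G, which the listing had not used. At 61.9% G, hsa-miR-149-3p was among the 4 most G-rich of the 602 miRNAs with a sequence in the m7G-RIP-seq fit. hsa-miR-760, at 50% G, was among 54 such miRNAs (8.97%) with at least that share. hsa-miR-328-3p, at 18.2% G, lay at the other end, with 150 miRNAs (24.9%) at or below its share. Of those 150, 22 (14.7%) were called enriched and 59 (39.3%) depleted, against 28.4% and 29.2% of all 602. hsa-miR-149-5p, at 17.4% G, was among 110 at or below its share, of which 41 (37.3%) were called depleted.

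Across all 602 miRNAs, the share of G and the log2 enrichment in m7G-RIP-seq had a Pearson correlation of 0.43 and a Spearman correlation of 0.45. In BoRed-seq these were 0.42 and 0.39 over 406 miRNAs. The points share their libraries and base composition, and the values are descriptive. Of the 54 miRNAs with at least the G share of hsa-miR-760, 41 were called enriched in m7G-RIP-seq, as were 21 of 24 in BoRed-seq. The miRNAs at or below the G share of hsa-miR-328-3p had a median log2 enrichment of -0.56 by the antibody and -1.25 by reduction, against its own 1.31 and 2.17.

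**Figure D5:**
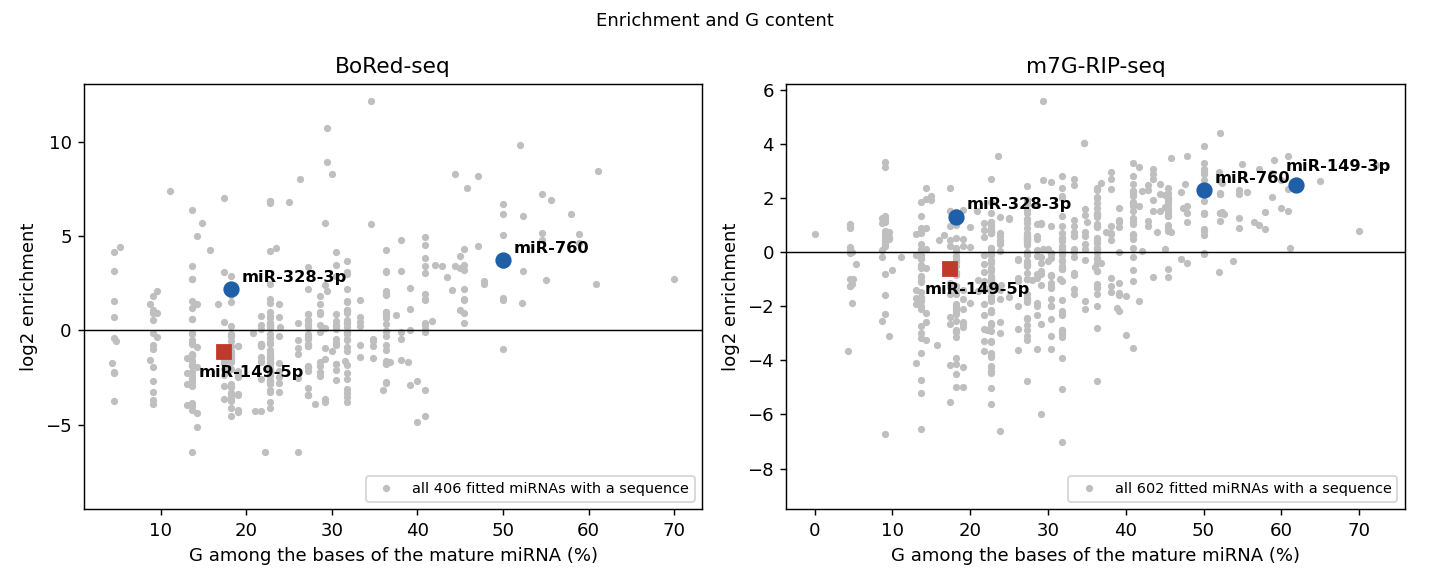
The log2 enrichment in BoRed-seq (left, 406 miRNAs) and m7G-RIP-seq (right, 602) against the percentage of G in the mature miRNA, with 1 grey point per miRNA. Listed arms are blue and miR-149-5p is a red square. miR-328-3p and miR-149-5p, at 18.2 and 17.4% G, lie on opposite sides of 0 in both panels. The side of miR-328-3p was part of its choice. miR-149-5p did not pass the test in m7G-RIP-seq, and in BoRed-seq it was at 0.02 with total-count scaling.

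A sequence pattern that can form a G-quadruplex was searched on the RNA strand as GG or more, 4 times over, with 1 to 7 bases between the runs. The mature hsa-miR-149-3p and hsa-miR-328-5p hold it, as do 33 of the 602 miRNAs fitted in m7G-RIP-seq (5.48%), of which 21 were called enriched. A base between the runs may itself be G, so hsa-miR-149-3p matches with only 3 separate runs, by a split of its run of 5 G. hsa-miR-760, also with 3 runs of G but none longer than 4, does not hold the pattern. Neither do hsa-miR-328-3p and hsa-miR-149-5p. In the hairpins, a first match spans bases 50 to 81 of the 89 bases of MIR149, which covers the whole 3p arm (bases 56 to 76). In MIR328 it spans bases 2 to 29 of 75, which covers the whole 5p arm and no base of the listed 3p arm (bases 48 to 69). The hairpin of miR-760 holds none. Of the 602 miRNAs, 170 (28.2%) come from a hairpin with a match. A match describes letters and is no measured structure.

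Among miRNAs with a sequence, only hsa-miR-4728-5p both shared a seed with any of the 5 members shown above and passed the m7G-RIP-seq count filter. It shares the seed of hsa-miR-149-3p. Its sequence is shown as the nearest comparison for hsa-miR-149-3p.
hsa-miR-4728-5p: uGGGAGGGgagaggcagcaagca
With 12 G in 23 bases, its log2 enrichment was 4.39 ± 0.73 (DESeq2 adjusted p = 7.4e-09), against 2.47 ± 0.37 for hsa-miR-149-3p. It did not pass the filter of BoRed-seq.

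The other 16 miRNAs on the METTL1-dependent list give the range in which the 4 fall, as values of a list chosen on these samples and no independent evidence. All 16 passed the filter of both assays. In BoRed-seq all 16 were called enriched, with a median log2 enrichment of 3.68 against -0.32 over all 453 miRNAs, from 1.41 ± 0.27 for hsa-miR-125a-5p to 7.22 ± 0.45 for hsa-miR-663a. hsa-miR-760 (3.73) lay near that median and hsa-miR-328-3p (2.17) below it. In m7G-RIP-seq 15 of the 16 were called enriched, with a median of 1.49 against 0.02 over all 670, from 0.64 ± 0.28 for hsa-miR-125a-5p to 2.82 ± 0.20 for hsa-miR-23b-5p. There hsa-miR-149-3p, hsa-miR-505-5p and hsa-miR-760 lay in the upper part of the range and hsa-miR-328-3p just below the median. The 16th was hsa-miR-663a, at 1.24 ± 0.62.

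The miRNAs with the most similar profile over the 14 libraries were found by the root mean square difference of log2(normalized count + 1), each taken relative to the mean of its control group. Such a profile follows the enrichment on which the list was partly chosen, so a listed neighbour is no independent evidence. hsa-miR-760 was closest to hsa-miR-320d (0.27), hsa-miR-320c (0.34) and hsa-let-7e-5p (0.43), all on the same list, against a median of 2.58 over its 425 candidates. hsa-miR-328-3p was closest to hsa-miR-92a-1-5p (0.28), hsa-miR-30c-1-3p (0.31) and hsa-miR-937-3p (0.35), none of which is on the list. hsa-miR-149-3p was closest to hsa-let-7e-5p (0.47), hsa-miR-196a-5p (0.51) and hsa-miR-432-5p (0.51), of which only hsa-let-7e-5p is on the list. hsa-miR-505-5p was closest to hsa-miR-196a-5p (0.41), hsa-miR-432-5p (0.41) and hsa-miR-375 (0.50), none of which is on the list. For the last 2 members the added count of 1 weighs on their BoRed-seq levels in Ctrl, which were 1.46 and 2.26 normalized counts.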

How the data were processed

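The authors trimmed the reads (Trimmomatic), aligned them to GRCh38 and counted them on mature miRNAs with featureCounts. The submitters' processing notes name Bowtie2 and the published methods name STAR, so the aligner is not settled. The deposited values are raw counts of 2588 mature miRNAs in 14 libraries, and 0 columns were left unmatched. Each assay was fitted alone in DESeq2 1.42.0 (R 4.3.3, median-of-ratios size factors, Wald test, Benjamini-Hochberg adjustment over all miRNAs fitted, threshold 0.05), with at least 10 counts in 2 libraries (BoRed-seq, 453 miRNAs) or 5 (m7G-RIP-seq, 670). The procedure was tested on simulated data. edgeR 4.0.16 was an alternative. Arm shares came from raw counts with Wilson intervals (95%, scipy 1.17.1), and limits at a count of 0 stand for 3 counts.

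Replicate numbers in the labels were checked for pairing from the deviations of libraries from their group means. In m7G-RIP-seq the correlations of same-numbered Input and IP libraries were 0.18, 0.15, 0.14, 0.31 and 0.39, all over 0.1, so the paired value is printed where it changes a call. The labels do not state this pairing, and it comes from the data. Libraries of another number correlated at up to 0.37, and for replicates 2, 3 and 4 an own-numbered partner was not the best in both directions.

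Named were all 7 members, the highest and lowest of the other 16 listed miRNAs per assay, the 3 most similar miRNAs to each listed member and miRNAs with a member's seed. hsa-miR-6785-5p and hsa-miR-6885-5p, and hsa-miR-663a in m7G-RIP-seq, were named after their values were seen. The members and lists were chosen with earlier results of these data known.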

Additional observations from a re-analysis of the deposited data

Results flagged for a closer look

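In 20 checks of groups of 5 libraries, in which chance alone sets about 1 in 20 apart, 1 library stood out. Input 4 had the highest share of the 3p arm among the miR-328 counts, 99.9% (1982 of 1983 counts), and its gap to the nearest Input library was 0.714 of the whole range of the group. The other Input libraries had 5 to 10 counts of hsa-miR-328-5p and Input 4 had 1.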

How the results depend on the processing

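The 4 listed arms stayed above 0 under every alternative that gave them a value, a direction on which they had been chosen. In BoRed-seq, hsa-miR-149-3p and hsa-miR-505-5p did not pass the filter and have no value with TMM factors, in edgeR or with a replicate block. With 10 counts required in every library, 71 miRNAs were called enriched and 71 depleted in BoRed-seq, against 127 and 108, and 116 were called depleted in m7G-RIP-seq, against 200. The number called depleted in BoRed-seq was 46 with total-count scaling and 167 in edgeR, and ran from 59 (without Ctrl 2) to 85 over the fits that leave out a library. With no count filter, 4 members were called enriched in BoRed-seq in place of 2, all of them listed arms, beside 138 of the 653 miRNAs with an adjusted p. The number of members called depleted in BoRed-seq was 0 with total-count scaling, where hsa-miR-149-5p was at 0.021, and 0 to 1 over the fits that leave out a library. hsa-miR-505-3p, never called in BoRed-seq, had a log2 enrichment of -0.15 with TMM factors, -0.14 in edgeR, -0.46 with no filter, 1.16 with total-count scaling, and -0.17 to 0.26 over the fits that leave out a library, with a negative sign without Ctrl 1 or Red 2. In m7G-RIP-seq 2 members were called depleted in place of 1 with a replicate block, with a term for the replicate set and in either set alone, and 1 to 2 over the fits that leave out a library, in each case through hsa-miR-149-5p. Over all miRNAs, the number called depleted was then 237 of 670 with the block, 234 of 669 with the set term, and 201 and 217 in replicates 1 to 3 and 4 to 5, against 200. The replicate block changed no other member's call. In BoRed-seq the 2 pairs of numbers correlated at 0.11 and share only a number, and with the block 115 were called enriched and 96 depleted. The cause of these changes was not tested. Depth limits hsa-miR-149-3p and hsa-miR-505-5p in BoRed-seq and hsa-miR-328-5p in both assays.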
